A study of Mus musculus with 36 samples.

Results

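Myc and 30 genes of ribosome biogenesis were followed in mouse embryonic fibroblasts, mesenchymal cells grown from embryos. The 31 genes were taken by function, with earlier results of these data known: the transcription factor Myc, 2 RNA polymerase I subunits, 3 box C/D and 4 box H/ACA small nucleolar ribonucleoprotein (snoRNP) proteins, 4 proteins of nucleolar organisation, 8 small-subunit factors, and 9 large-subunit factors and other nucleolar proteins. All 31 were found by symbol among the 49585 genes counted, and all 31 passed the filter on low counts, which left 13364 genes for testing.

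The study set wild-type cells beside cells with a knock-in allele of Tbk1, N129D, which replaces an amino acid of a kinase of antiviral signalling and selective autophagy. Homozygous (hom) line E1.4 with E2.2 and E2.9, heterozygous (het) line E1.3 with E2.5, E2.6 and E2.8, plus wild-type (WT) line E1.5 with E2.1 and E2.7, were given antimycin and oligomycin (AO) for 4 h, given poly(I:C) for 4 h, or left untreated, with 1 library per line and treatment; values by line keep this order throughout. Antimycin inhibits respiratory complex III and oligomycin inhibits ATP synthase, while poly(I:C) is a synthetic double-stranded RNA. WT line E1.5 was also grown at high and at low density, which gave 6 more libraries, 1 for each pairing of density and treatment. No doses, passage numbers or embryo ages are given in the labels.

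Ribosomes are assembled in the nucleolus, where RNA polymerase I makes a long precursor of ribosomal RNA. Box C/D particles guide its methylation and box H/ACA particles guide its pseudouridylation, while large sets of assembly factors fold and cut it into the small and large subunits. Myc is a basic helix-loop-helix transcription factor that binds E-box DNA with its partner Max and is known to drive many genes of this pathway in dividing cells, fibroblasts among them.

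Total counts ran from 3689177 to 14879261 in the 30 libraries without a density label. Of 13 fibroblast markers Col1a1, Vim and Fn1 were above 0 in all 36 libraries, with Col1a1 between 795 and 3900 CPM (read counts scaled to library size), while Dcn was at 0 in 1 library and Lum in 6. The summed level of 10 macrophage markers was between 132 and 218 CPM in the 3 libraries of hom line E2.9, between 29.9 and 47.5 CPM in those of het line E2.6, and between 1.27 and 6.7 CPM in the other 30 libraries; Adgre1 was at 0 in 28 of the 36. Hom line E1.4 stood apart by gene length: the median deviation of the 2669 shortest genes minus that of the 2669 longest was 1.15 on the log2 scale under AO and 0.67 untreated, against -0.24 to 0.16 in the other 28 libraries. Levels of Tbk1 mRNA do not check a substitution and are not given. The part of these libraries in the results was not tested, and calls over the genotypes that change without E1.4 are given with the comparison. In such bulk samples fewer cells of a type and less RNA per cell cannot be told apart.

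The core E-box of Myc and Max, CACGTG, reads the same on both strands and was searched in RefSeq promoters on GRCm38.p6, from 250 bases before to 50 bases after each annotated start. Promoter entries were matched for 25 of the 31 genes; Myc, Rrs1, Fbl, Npm1, Bop1 and Rrp12 had none. The motif was found for 6 of the 25, or 24%, against 2187 of 27025 genes, or 8.09%. These were Nop2, Pes1, Wdr43, Mybbp1a, Tsr1 and Ltv1. Stretches from 100 bases before the start to 30 after it are shown for Nop2 (chr6:125131783-125131912, plus strand) and Tsr1 (chr11:74897980-74898109, plus strand), which hold the motif in capitals and whose mRNA was higher under both treatments, and for Gnl3 (chr14:31019102-31019231, minus strand), which has no such letters in the window and had the largest AO response after Myc.
Nop2: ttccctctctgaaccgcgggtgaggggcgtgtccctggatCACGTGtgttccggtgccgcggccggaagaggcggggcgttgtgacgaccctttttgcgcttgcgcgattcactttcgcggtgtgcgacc
Tsr1: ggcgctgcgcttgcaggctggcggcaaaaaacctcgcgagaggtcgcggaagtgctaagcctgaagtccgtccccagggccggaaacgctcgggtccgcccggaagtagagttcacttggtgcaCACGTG
Gnl3: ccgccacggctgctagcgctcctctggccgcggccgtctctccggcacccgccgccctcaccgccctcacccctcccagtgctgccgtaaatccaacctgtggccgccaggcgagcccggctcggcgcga
The motif began 60 bases before the start in Nop2. In Tsr1, Ltv1, Mybbp1a, Wdr43 and Pes1 it began after the start. A match describes these letters and shows no binding.

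The first comparison asked how the genes answered to AO, which was set against untreated cells as the mean of the 3 genotypes. Myc mRNA was 2.43-fold higher under AO. Of the 31 genes 22 rose and none fell by edgeR's quasi-likelihood test (Benjamini-Hochberg adjusted p under 0.05), while 33.7% of all genes tested passed in either direction and 17% passed as higher. The median log2 fold change was 0.34 over the 31 genes, against -0.02 over all genes tested. After Myc, the largest rises were in Gnl3, Wdr43, Ltv1, Rrp12, Nop14 and Nop58, and 9 genes did not pass. Under DESeq2 23 rose, against 18.8% of all genes, and in a fit with the cell line as a replicate block 26 did, against 23.5%. Without hom line E1.4 21 rose, against 18.4% of all genes: Mybbp1a (0.21, adjusted p = 0.017) and Heatr1 (0.30, adjusted p = 0.0181) passed, while Polr1b, Nolc1 and Bysl no longer did. Summed over their markers, fibroblast genes stood at 7860 to 13300 CPM under AO, against 12200 to 15600 CPM untreated. The sum of 7 endothelial markers stood at 12.5 to 35.2 CPM under AO, against 4.24 to 22.6 CPM untreated. Over all libraries Kdr had the highest median of these endothelial markers (8.82 CPM). Tie1 was at 0 in all 36 libraries, Cldn5 in 29 and Emcn in 26. The part of these levels in the AO responses was not tested.

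Myc stood at 407, 394 and 327 CPM in the 3 hom lines under AO, against 144, 143 and 159.9 CPM in the same lines untreated. In the 4 het lines it stood at 336, 369, 228 and 372 CPM under AO, against 138, 159.7, 112 and 149 CPM untreated. In the 3 WT lines it stood at 386, 383 and 338 CPM under AO, against 154, 162 and 141 CPM untreated. Every AO library lay above every untreated one, and E2.6 was the lowest line in both conditions. The log2 fold change was 1.28 ± 0.11 (SE, adjusted p = 3.5e-09) over the genotypes, 1.34 ± 0.20 in hom lines, 1.23 ± 0.17 in het lines and 1.27 ± 0.20 in WT lines, and Myc passed in each genotype. Leaving out any 1 of the 10 lines gave 1.24 to 1.31 and kept the call. Fitted on the compared groups alone, the change in hom lines did not pass (1.35, adjusted p = 0.058).

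**Figure D1:**
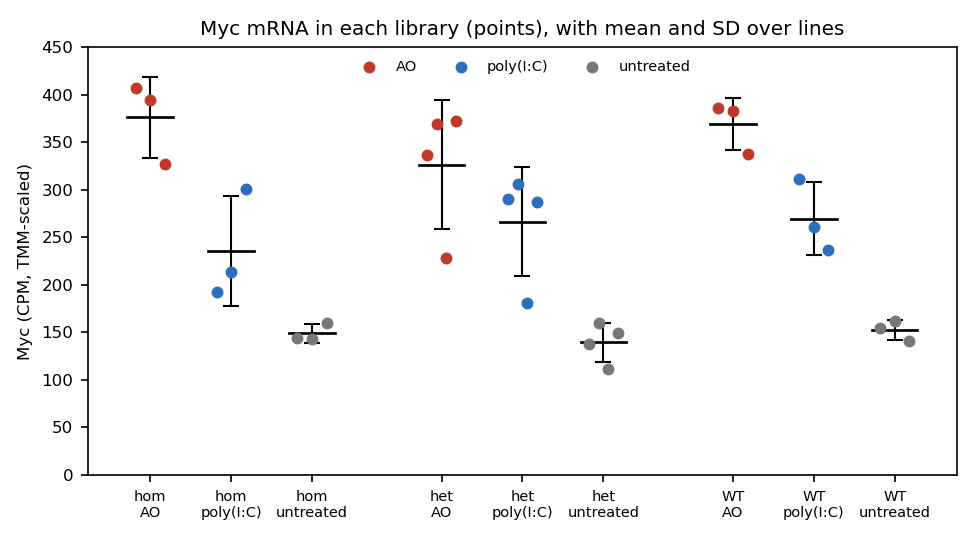
Myc mRNA in CPM on the vertical axis for the 30 libraries without a density label, grouped by genotype (hom, het, WT) and, within it, by treatment (AO, poly(I:C), untreated). Points are libraries, and bars are the mean and SD over lines; AO libraries lie between 228 and 407 CPM, poly(I:C) libraries between 181 and 312 CPM and untreated libraries between 112 and 162 CPM.

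Of the 8 small-subunit factors 7 rose under AO, with a median log2 fold change of 0.54 over the 8. Wdr43, a component of the processome that forms on the nascent precursor, stood at 281 to 401 CPM over the 10 lines under AO (median 326), against 176 to 232 CPM untreated (median 219). No AO library overlapped an untreated one for this gene, and its log2 fold change was 0.68 ± 0.08 (SE, adjusted p = 6.91e-07). Nop14, another processome component, stood at 166 to 215 CPM under AO (median 200.1), against 116 to 143 CPM untreated (median 130.3), again with no overlap (0.58 ± 0.06, adjusted p = 2.09e-07). Rrp12, which acts in export of the small subunit, stood at 70.3 to 85.3 CPM under AO, against 40.4 to 64.4 CPM untreated (0.59 ± 0.07, adjusted p = 4.92e-07). Tsr1, a late maturation factor that resembles a GTPase, stood at 166 to 215 CPM under AO, against 111 to 143 CPM untreated (0.50 ± 0.07, adjusted p = 1.07e-05). For both of these genes too the AO libraries lay wholly above the untreated ones. Ltv1, which leaves the small subunit late in its maturation, overlapped through the low AO value of het line E2.6 and rose by 0.59 ± 0.09, and Rrp9, a U3 snoRNP protein, rose by 0.41 ± 0.08. Bysl, which acts in maturation of the small subunit, passed narrowly at 0.16 ± 0.06 (adjusted p = 0.0438), and leaving out any 1 line ended its call (adjusted p = 0.0618 to 0.177). Heatr1, a large processome scaffold, was 0.28 ± 0.15 higher without passing, and passed with the replicate block (adjusted p = 0.00894) as it did without E1.4.

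Of the large-subunit factors and other nucleolar proteins 7 of 9 rose. Gnl3, the nucleolar GTPase nucleostemin, stood at 355, 285 and 333 CPM in the 3 hom lines under AO, against 188, 161 and 171 CPM untreated. In the 4 het lines it stood at 294, 316, 229 and 315 CPM under AO, against 160.1, 179, 192 and 167 CPM untreated, and in the 3 WT lines at 327, 302 and 257 CPM under AO, against 208, 185 and 151 CPM untreated. The AO libraries lay above all untreated ones, with the smallest step in E2.6, and the log2 fold change was 0.78 ± 0.08 (SE, adjusted p = 9.7e-08). Rrs1, which helps to place the 5S particle in the large subunit, rose by 0.47 ± 0.09, the RNA helicase Ddx21 by 0.41 ± 0.10 and the nucleolar protein Rrp1b by 0.41 ± 0.10. Nop16 rose by 0.36 ± 0.11, the ribosomal RNA methyltransferase Nop2 by 0.34 ± 0.09 and Wdr12 by 0.26 ± 0.08, or 0.17 without E1.4. Nop16 was lost without WT line E1.5 (0.33, adjusted p = 0.0531) and Wdr12 without WT line E2.1 (0.25, adjusted p = 0.0526). Wdr12 works in a trimer with Pes1 and Bop1, which did not pass, at 0.12 ± 0.06 and 0.04 ± 0.05; Pes1 passed with the replicate block (adjusted p = 0.0407).

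Among the snoRNP proteins 2 of 3 box C/D members rose under AO and 1 of 4 box H/ACA members did. Nop58, a box C/D core protein, stood at 439 to 586 CPM under AO (median 532), against 316 to 402 CPM untreated (median 354), with no overlap (0.58 ± 0.06, adjusted p = 9.15e-08). Its partner Nop56 rose by 0.41 ± 0.12 and the methyltransferase Fbl was 0.22 ± 0.09 higher without passing (adjusted p = 0.0655, or 0.0288 with the replicate block). Gar1, of the box H/ACA particle, stood at 63.4 to 142 CPM under AO (median 73.3), against 51.4 to 73.3 CPM untreated (median 56.3), and rose by 0.45 ± 0.09 (adjusted p = 0.000503). Nhp2, Dkc1 and Nop10, the other 3 of that particle, did not pass, at 0.14 ± 0.14, 0.08 ± 0.09 and 0.06 ± 0.14; Dkc1 is its pseudouridine synthase. Hom line E1.4 held the highest AO value of Gar1 (142 CPM), Nhp2 (220.4 CPM), Nop10 (85.2 CPM), Fbl (433 CPM) and Nop56 (762 CPM). The gene length skew of that library, given above, moved with these values, and its part was not tested; without E1.4 the log2 fold change of Gar1 was 0.36 and it still passed.

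Of the 4 proteins of nucleolar organisation 3 rose: Npm1, the histone chaperone nucleophosmin, by 0.29 ± 0.09, Ncl, nucleolin, by 0.26 ± 0.08, and Nolc1, which escorts snoRNPs, by 0.21 ± 0.08. Npm1 stood at 1956 to 3305 CPM under AO and 1721 to 2367 CPM untreated, so that the ranges overlapped. Ncl was lost without line E2.1, E2.5 or E2.8 (highest adjusted p = 0.0584), and Nolc1 kept its call in only 1 of the 10 fits that each left out a line. Mybbp1a, a nucleolar regulator that binds Myb, did not pass at 0.17 ± 0.09, and passed with the replicate block (adjusted p = 0.00914) and without E1.4. Of the RNA polymerase I catalytic core, Polr1b rose by 0.23 ± 0.08 (adjusted p = 0.0384) and was lost in 9 of those 10 fits (highest adjusted p = 0.167). Polr1a was at -0.06 ± 0.11 and did not pass.

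**Figure D2:**
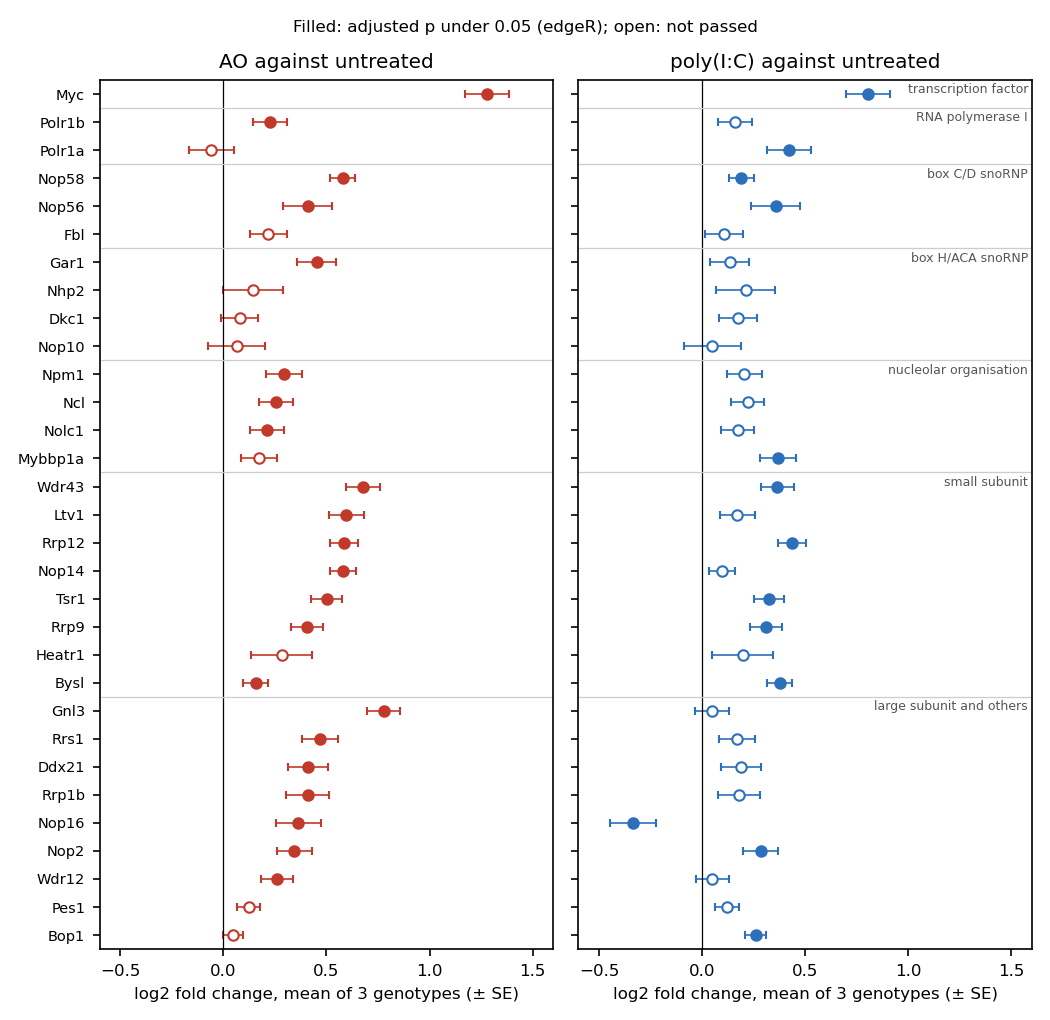
Log2 fold change (horizontal axis, ± SE) of each of the 31 genes under AO (left) and poly(I:C) (right), each against untreated cells as the mean of the 3 genotypes, with genes ordered by role. Filled points passed at an adjusted p under 0.05; Myc leads both panels at 1.28 and 0.81, and Nop16 stands at 0.36 under AO and -0.34 under poly(I:C).

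By genotype, 12 of the 31 genes rose under AO in hom lines, 8 in het lines and 9 in WT lines, where 7.36%, 6.17% and 4.23% of all genes passed as higher. Myc, Gnl3, Nop58, Nop14, Wdr43, Rrp12, Tsr1 and Ltv1 rose in every genotype. Myc and Rrp12 kept their call in each genotype with any 1 line left out, and the other 6 lost it in at least 1 genotype. With the replicate block the counts were 19, 12 and 14, where 14.5%, 12.8% and 11.2% of all genes passed as higher, and on the compared groups alone the count in hom lines was 0. The count in WT lines was 3 without E2.1, 5 without E1.5 and 14 without E1.4. That in het lines was 5 without E2.8 and 12 without E1.4. All 9 groups share 1 estimate of the spread, so a line left out can change calls in other genotypes. Beside these counts and that on the compared groups alone, the share of all genes is given only without E1.4. Without E1.4, where 7.97% of all genes passed as higher in WT lines and 9.82% in het lines, Rrs1, Gar1, Ddx21 and Rrp1b were added in both and Nop2 in WT lines, and in hom lines Npm1 was lost. Over single lines, 16 genes were higher under AO than untreated in all 10 lines, against 14.8% of all genes, and none was lower in all 10. The median log2 ratio of the 30 genes other than Myc was between 0.26 and 0.55 in 9 lines and 0.09 in het line E2.6, where 18 were higher and 12 lower.

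**Figure D3:**
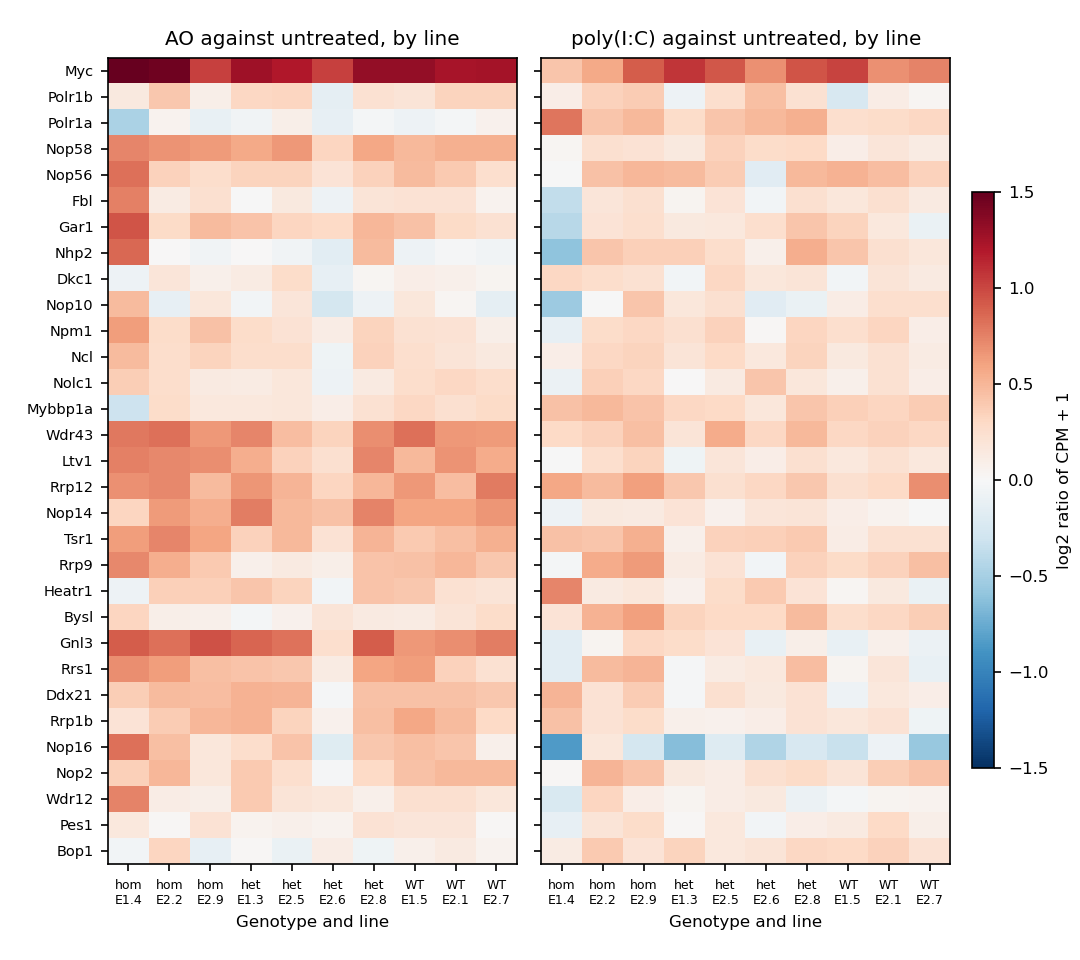
Log2 ratio of CPM + 1 (colour, red higher and blue lower) for each gene (rows) in each line (columns: hom, het, then WT), for AO against untreated on the left and poly(I:C) against untreated on the right. Myc is red in every column of both panels, Polr1a is red in all 10 lines under poly(I:C), and Nop16 is lower in 9 of 10 lines under poly(I:C).

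The second comparison set poly(I:C) against the same untreated libraries, again as the mean of the genotypes. Myc was 1.75-fold higher, 12 of the 31 genes rose and 1, Nop16, fell, where 21.7% of all genes passed in either direction and 9.91% as higher. The median log2 fold change was 0.19, against 0.00 over all genes. Besides Myc, the leading rises were in Rrp12, Polr1a, Bysl, Mybbp1a and Wdr43. With the replicate block 20 rose and 1 fell, where 39.3% of all genes passed and 19.7% as higher. The genes that passed with the block and not in the fit without it were Ncl, Npm1, Nolc1, Ltv1, Ddx21, Dkc1, Rrp1b and Heatr1. Without hom line E1.4 19 rose and 1 fell, where 14.9% of all genes passed as higher. The 7 genes added were Rrs1, Ncl, Npm1, Nhp2, Gar1, Pes1 and Nolc1, at 0.15 to 0.32 (adjusted p = 0.0024 to 0.0427). The summed fibroblast markers stood at 14100 to 18600 CPM under poly(I:C), against 12200 to 15600 CPM untreated. The endothelial sum stood at 5.77 to 27.2 CPM under poly(I:C), against 4.24 to 22.6 CPM untreated. The part of these levels in the poly(I:C) responses was not tested.

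Myc stood at 193, 213 and 301 CPM in the 3 hom lines under poly(I:C), at 290.2, 306, 181 and 287 CPM in the 4 het lines, and at 312, 260.5 and 236 CPM in the 3 WT lines. All 10 libraries lay above the highest untreated value, 162 CPM. The log2 fold change was 0.81 ± 0.11 (SE, adjusted p = 9.94e-06) over the genotypes and 0.75 to 0.83 with any 1 line left out. Within genotypes it was 0.66 ± 0.19 in hom lines, which did not pass (adjusted p = 0.0979), 0.93 ± 0.17 in het lines (adjusted p = 0.0019) and 0.82 ± 0.19 in WT lines (adjusted p = 0.0182). The call in WT lines was lost without E1.5, E2.1 or E2.7 (0.72 to 0.88, adjusted p up to 0.331), and that in het lines on the compared groups alone (0.95, adjusted p = 0.0552). The difference of the responses, hom minus WT, was -0.16 ± 0.27 and did not pass.

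Polr1a, the largest subunit of RNA polymerase I, stood at 182, 208 and 235 CPM in the 3 hom lines under poly(I:C), against 104, 156 and 167 CPM untreated. In the 4 het lines it stood at 190.5, 206, 225 and 242 CPM under poly(I:C), against 156, 154, 159.9 and 166 CPM untreated, and in the 3 WT lines at 208, 200.3 and 168 CPM under poly(I:C), against 175, 165 and 135 CPM untreated. It was higher in all 10 lines, although the ranges over lines overlapped, and rose by 0.42 ± 0.11 (SE, adjusted p = 0.00626). Polr1b was 0.16 ± 0.08 higher without passing.

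Among small-subunit factors 5 of 8 rose under poly(I:C). Rrp12 stood at 62.1 to 85.1 CPM under poly(I:C) (median 69.2), against 40.4 to 64.4 CPM untreated (median 54.5), and rose by 0.44 ± 0.07 (adjusted p = 7.07e-05). Bysl stood at 69.5 to 89 CPM under poly(I:C) (median 74.4), against 53.6 to 64.7 CPM untreated (median 57.9). No poly(I:C) library of Bysl overlapped an untreated one, and the change was 0.38 ± 0.06 (adjusted p = 7.46e-05). Wdr43 rose by 0.36 ± 0.08, Tsr1 by 0.32 ± 0.07 and Rrp9 by 0.31 ± 0.08. Ltv1, Nop14 and Heatr1 did not pass, at 0.17 ± 0.09, 0.10 ± 0.06 and 0.20 ± 0.15.

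Nop16 had 39.5, 61.4 and 50.2 CPM in the 3 hom lines under poly(I:C), against 72.2, 54.3 and 60.4 CPM untreated. In the 4 het lines it had 36.3, 49.3, 52.5 and 47.8 CPM under poly(I:C), against 57.1, 56.4, 72.3 and 56.5 CPM untreated, and in the 3 WT lines 44.6, 55.8 and 38.4 CPM under poly(I:C), against 56.4, 58.7 and 57.3 CPM untreated. It was lower in 9 of 10 lines, hom line E2.2 being the exception, with a log2 fold change of -0.34 ± 0.11 (SE, adjusted p = 0.0313). The call was lost without E1.3, E1.5, E2.7 or E2.8, with an adjusted p up to 0.0952, and the change without E1.4 was -0.25. Bop1, of the Pes1 trimer, stood at 92.8 to 103 CPM under poly(I:C), against 74.3 to 91.5 CPM untreated, with no overlap (0.26 ± 0.05, adjusted p = 0.000496). Nop2 rose by 0.28 ± 0.09 and was lost without E2.1, E2.2 or E2.9 (adjusted p up to 0.0803), while Gnl3 was at 0.05 ± 0.08 and did not pass.

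Both Nop56 (0.36 ± 0.12, adjusted p = 0.0336) and Nop58 (0.19 ± 0.06, adjusted p = 0.0258) of the box C/D particle rose under poly(I:C). Nop56 kept its call in 2 of the 10 fits that left out a line and Nop58 in 5. None of the 4 box H/ACA proteins passed, with log2 fold changes of 0.05 to 0.21. Hom line E1.4 moved the other way from most lines for Nhp2, Gar1 and Nop10. Nhp2 was lower there (log2 ratio -0.60) and higher in the other 9 lines. Gar1 was lower there (-0.42) and in WT line E2.7 (-0.10) and higher in the other 8. Nop10 was lower there (-0.54) and higher in 6 of the 10 lines. The gene length skew of E1.4 was 0.67 untreated and 0.03 under poly(I:C), and its part was not tested. Without E1.4 Nhp2 passed at 0.32 ± 0.08 (adjusted p = 0.0024) and Gar1 at 0.20 ± 0.06 (adjusted p = 0.0105), while Nop10 did not pass. Mybbp1a stood at 538 to 724 CPM under poly(I:C) (median 653), against 412 to 559.9 CPM untreated (median 514), and rose by 0.37 ± 0.09 (adjusted p = 0.00333). The values of Ncl, Npm1 and Nolc1 were 0.22 ± 0.08, 0.20 ± 0.09 and 0.17 ± 0.08, and none of the 3 passed. Without E1.4 all 3 did, at 0.24, 0.24 and 0.22 (adjusted p = 0.039, 0.0251 and 0.023).

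Within genotypes poly(I:C) raised Rrp12 and Bysl in hom lines, Myc and Bysl in het lines and Myc in WT lines, where 0.531%, 2.21% and 1.26% of all genes passed as higher. With the replicate block 8, 10 and 8 genes rose, against 5.54%, 8.78% and 7.39% of all genes, and under DESeq2 4, 6 and 3 did, against 1.32%, 3.56% and 2.16%. On the compared groups alone the counts were 0, 0 and 4. The highest counts with 1 line left out came without E1.4, where 4 genes rose in hom lines, 6 rose and Nop16 fell in het lines, and 5 rose in WT lines, against 1.84%, 5.16% and 4.8% of all genes as higher. The count in hom lines was 0 without E2.2 or E2.9, 3 without E2.6 and 1 without any other line. That in het lines was 1 without E1.3, E2.1, E2.5 or E2.8. The count in WT lines was 2 without E2.6 and 0 without E1.5, E2.1 or E2.7. Shares of all genes are not given beside these counts or those on the compared groups alone. Over single lines 11 genes were higher in all 10 lines, against 8.43% of all genes. The median log2 ratio of the 30 genes other than Myc was between 0.13 and 0.33 in 9 lines and 0.01 in hom line E1.4, where 15 were higher and 15 lower.

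AO and poly(I:C) share their untreated libraries, so the treatments were also compared directly. Of the 31 genes 10 were higher under AO and 3 were lower, where 41.3% of all genes passed, 21% as higher and 20.4% as lower. With both directions counted together, the share of the 31 genes was near that of all genes, also with the replicate block and without E1.4. Gnl3 stood at 229 to 355 CPM under AO, against 142 to 213 CPM under poly(I:C), with no overlap (0.73 ± 0.08, SE, adjusted p = 1.34e-07). Nop14 stood at 166 to 215 CPM under AO, against 115 to 153 CPM under poly(I:C), also without overlap (0.48 ± 0.06, adjusted p = 1.66e-06), as did Nop58 (0.39 ± 0.06). Nop16 stood at 60.3 to 128.8 CPM under AO, against 36.3 to 61.4 CPM under poly(I:C) (0.70 ± 0.11, adjusted p = 1.77e-05), and was higher under AO in 10 of 10 lines. Myc was higher under AO by 0.47 ± 0.11 (adjusted p = 0.000867), also in 10 of 10 lines. Ltv1, Gar1, Wdr43, Rrs1 and Wdr12 were higher by 0.42 ± 0.09, 0.32 ± 0.09, 0.31 ± 0.08, 0.30 ± 0.09 and 0.21 ± 0.08. Rrs1 was lost without E1.5 (0.25, adjusted p = 0.0506) and stood at 0.20 without E1.4. Wdr12 was lost in 7 of 10 fits without a line, with 0.08 and an adjusted p of 0.274 without E1.4; for Gar1 the difference without E1.4 was 0.16, and it still passed.

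The 3 genes lower under AO than under poly(I:C) were Polr1a, Bysl and Bop1. Polr1a stood at 74.5 to 166 CPM under AO, against 168 to 242 CPM under poly(I:C), with no overlap, the lowest AO value being that of E1.4 (-0.48 ± 0.11, adjusted p = 0.000897; -0.42 without E1.4). Bysl differed by -0.22 ± 0.06 (adjusted p = 0.00468) and Bop1 by -0.21 ± 0.05 (adjusted p = 0.00106). Mybbp1a was lower under AO in 10 of 10 lines at -0.20 ± 0.09 without passing, and passed with the replicate block (adjusted p = 0.00142). The block, under which 56.6% of all genes passed, also added Tsr1, Ddx21, Rrp1b and Rrp12 as higher. Without E1.4, where 48.4% of all genes passed, Ddx21 (0.24, adjusted p = 0.0185) and Rrp1b (0.26, adjusted p = 0.00928) passed as higher under AO and Nhp2 as lower (-0.34, adjusted p = 0.000804, against -0.07 with E1.4 in). Set side by side, 9 genes rose under both treatments, and 12 passed as higher under AO and did not pass under poly(I:C). Another 3 (Polr1a, Mybbp1a and Bop1) passed as higher under poly(I:C) and did not pass under AO. Nop16 passed in opposite directions, and 6 passed under neither. Both sets of calls share the untreated libraries, and the same split over all genes is not given here. A gene that passed under a single treatment need not differ between the treatments. Of the 12, Gnl3, Nop14, Ltv1, Gar1, Rrs1 and Wdr12 also passed as higher under AO in the direct comparison. With all lines in, Npm1, Ncl, Nolc1, Polr1b, Ddx21 and Rrp1b did not. Polr1a and Bop1 passed there as lower, and Mybbp1a did not.

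The third comparison asked whether the Tbk1 allele moved these genes. None of the 31 passed by edgeR between hom and WT lines or between het and WT lines, untreated or under either treatment, and none did by DESeq2. By edgeR 0.015% of all genes passed between hom and WT lines untreated, 0.187% with poly(I:C) and 0.0% with AO. By DESeq2 these shares were 0.247%, 0.801% and 0.262%. In each het comparison 0.0% of all genes passed by either tool. At an unadjusted p under 0.05, 3 of the 31 differed between hom and WT lines under AO, near the 10.8% of all genes. None did in the other 5 comparisons, where 0.479% to 4.15% of all genes did. These 3 were Nop10 at 0.70 ± 0.25, Nhp2 at 0.63 ± 0.26 and Gar1 at 0.48 ± 0.17 (log2, SE, adjusted p = 0.419 to 0.42).

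Nhp2 stood at 220.4, 78.8 and 79.7 CPM in the 3 hom lines under AO, against 84.5, 89.6 and 71 CPM in the 3 WT lines. Nop10 stood at 85.2, 34.4 and 43.5 CPM in the hom lines under AO, against 35.7, 33.5 and 30.9 CPM in the WT lines, and Gar1 at 142, 69.6 and 82.9 CPM, against 74.4, 68.1 and 67.8 CPM. The highest value of all 3 genes was that of E1.4, the line with the gene length skew, and hom line E2.9 also lay above the WT lines for Nop10 and Gar1. Without E1.4 the differences, hom minus WT, were 0.23 for Nop10, -0.05 for Nhp2 and 0.12 for Gar1. Myc differed between hom and WT lines by -0.04 ± 0.19 untreated, -0.20 ± 0.19 with poly(I:C) and 0.03 ± 0.19 with AO, and between het and WT lines by -0.13 ± 0.18, -0.02 ± 0.18 and -0.18 ± 0.18 in those conditions. The smallest p between hom and WT lines fell on Nop10 (0.48 ± 0.25), Dkc1 (-0.22 ± 0.17) and Ncl (-0.17 ± 0.15) untreated, and on Bysl (0.20 ± 0.11), Rrp12 (0.20 ± 0.12) and Tsr1 (0.19 ± 0.13) under poly(I:C).

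Between het and WT lines the smallest p fell on Rrp9 (0.21 ± 0.13), Nop2 (0.21 ± 0.14) and Rrp12 (0.17 ± 0.12) untreated, on Polr1b (0.19 ± 0.14), Tsr1 (0.17 ± 0.12) and Nolc1 (0.16 ± 0.14) under poly(I:C), and on Polr1b (-0.17 ± 0.14), Myc and Nop10 (0.20 ± 0.23) under AO. For the difference of the responses, hom minus WT, none of the 31 genes passed for AO or poly(I:C) in edgeR or DESeq2. Of all genes 0.0% passed. At an unadjusted p under 0.05 in edgeR none of the 31 differed, where 0.95% of all genes did for AO and 1.17% for poly(I:C). The largest gap in the AO response, hom minus WT, was that of Nhp2 (0.47 ± 0.37, or 0.02 without E1.4). For poly(I:C) it was that of Polr1b (0.33 ± 0.21). A p that misses the threshold does not show that the genotypes act alike.

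The fourth comparison set high against low density within WT line E1.5, with treatment as a term and 1 library per density and treatment, so the test measures the spread between libraries of 1 line. All 31 genes had a negative log2 fold change and 14 fell, none rising, where 17.6% of 12491 genes tested passed in either direction and 8.6% as lower. The median was -0.21 over the 31 genes, against 0.01 over all genes. The largest falls were in Ncl, Mybbp1a, Bop1, Fbl and Pes1, and Myc did not pass. The high-density libraries held 16474077 to 22756901 counts and the low-density ones 5391426 to 6308011, so depth and density cannot be told apart. The summed level of 8 chondrocyte markers was 23 to 40.3 CPM at high density, against 42.8 to 70.7 CPM at low density, that of 7 smooth muscle markers 103 to 123 CPM at high density, against 126 to 187 CPM at low density, and that of 6 epithelial markers 3.13 to 5.1 CPM at high density, against 2.41 to 2.7 CPM at low density. None of these ranges overlapped between densities, and their part in the fall of the 31 genes was not tested.

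Ncl stood at 2553 CPM at high density, against 2932 CPM at low density under AO, at 2262 CPM against 3296 CPM under poly(I:C), and at 1978 CPM against 2769 CPM untreated (-0.41 ± 0.06, SE, adjusted p = 0.000234). Mybbp1a stood at 577 CPM at high density, against 755 CPM at low density under AO, at 621 CPM against 814 CPM under poly(I:C), and at 515 CPM against 661 CPM untreated (-0.38 ± 0.05, adjusted p = 7.53e-05). Both were lower at high density in all 3 treatments. Pes1 fell by 0.32 ± 0.06 on the log2 scale and Bop1 by 0.35 ± 0.07, while Wdr12 of the same trimer was at -0.15 ± 0.08 and did not pass. All 3 box C/D proteins fell: Fbl by 0.34 ± 0.06, Nop56 by 0.23 ± 0.06 and Nop58 by 0.20 ± 0.06.

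Nop2 fell by 0.31 ± 0.06 at high density, Rrp12 by 0.29 ± 0.07, Bysl by 0.28 ± 0.07, Heatr1 by 0.24 ± 0.07, Nhp2 by 0.32 ± 0.09, Npm1 by 0.21 ± 0.05 and Polr1a by 0.21 ± 0.06. Myc stood at 356 CPM at high density, against 376 CPM at low density under AO, at 239.6 CPM against 254 CPM under poly(I:C), and at 144 CPM against 152 CPM untreated. In each treatment the high-density value of Myc was slightly lower, and the difference did not pass (-0.08 ± 0.06, adjusted p = 0.438). Gar1, Ltv1, Nop16 and Gnl3 did not pass either, at -0.02 ± 0.09, -0.06 ± 0.07, -0.12 ± 0.11 and -0.10 ± 0.07. The count was 18 without the AO libraries, 7 without the poly(I:C) libraries, 5 without the untreated libraries and 0 with no treatment term. The shares of all genes in these fits are not given here, so a change over all genes cannot be told apart. Ncl, Mybbp1a, Bop1, Fbl and Pes1 were the genes that passed with any treatment left out.

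By treatment the ratios were unlike. Untreated, all 31 genes were lower at high density, with a median log2 ratio of -0.35. Under poly(I:C) 29 were lower, with a median of -0.29, and under AO 18 were lower and 13 higher, with a median of -0.05. Nop16 stood at 80.2 CPM at high density, against 66.5 CPM at low density under AO, at 44.9 CPM against 55 CPM under poly(I:C), and at 53.4 CPM against 68.1 CPM untreated. In all 3 treatments 17 of the 31 genes were lower, against 22.6% of all genes. With 1 library per density and treatment the difference between treatments was not tested. Shares and medians of all genes in single treatments are not given here. A change of the 31 genes alone and one over all genes can then not be told apart by treatment.

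**Figure D4:**
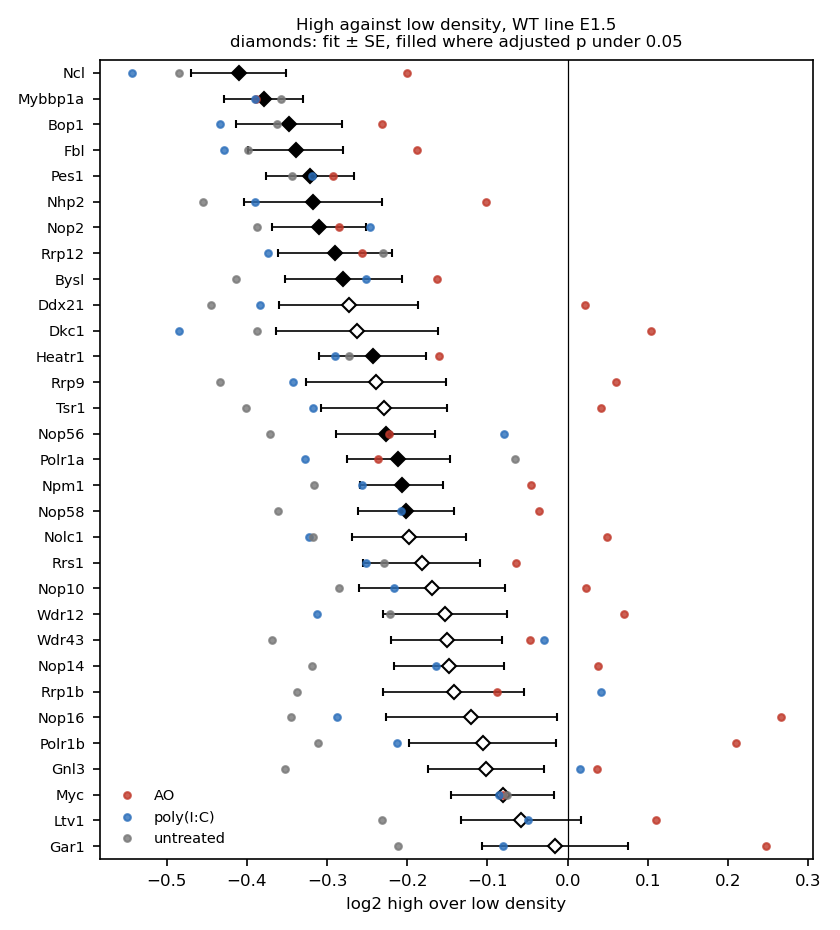
Log2 ratio of high over low density in WT line E1.5 (horizontal axis) for each gene, ordered by the fitted change. Diamonds are the fit with its SE, filled where the adjusted p is under 0.05, and dots are the ratios of CPM + 1 in single treatments; all 31 diamonds lie below 0, and the AO dots lie above 0 for 13 genes.

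Other genes of the pathway were counted from lists chosen by function, with earlier results of these data known. Over all genes 17% passed as higher and 16.7% as lower under AO, 9.91% and 11.8% under poly(I:C), and 8.98% and 8.6% at high density. Under AO 20 of 38 further small-subunit factors rose and 2 fell, and 24 of 42 further 60S assembly factors rose and 1 fell, with medians of 0.21 and 0.28 beside -0.02 over all genes. Utp15 and Utp18 of the processome rose by 0.73 ± 0.08 and 0.64 ± 0.07, and Nmd3, the export adaptor of the 60S subunit, by 0.78 ± 0.08. Of 13 further RNA polymerase I subunits and factors 7 rose and 1 fell, of 10 snoRNP assembly factors 5 rose, among them Naf1 by 0.73 ± 0.08, and of 13 RNA exosome genes 6 rose. Under poly(I:C) 18.4% of the small-subunit factors and 21.4% of the 60S factors rose, beside 9.91% of all genes. There 7 of the small-subunit factors rose and 1 fell, 9 of the 60S factors rose, 3 of the RNA polymerase I genes rose and 1 fell, and in both the snoRNP assembly and the exosome lists 2 rose and 1 fell. Naf1, an assembly factor of box H/ACA particles, was among those that fell there, at -0.28 ± 0.08 (adjusted p = 0.0102). With the replicate block 14 small-subunit and 16 60S factors rose under poly(I:C), or 36.8% and 38.1%, beside 19.7% of all genes. At high density 9 of the small-subunit factors fell, 7 of the 60S factors fell and 1 rose, 2 of the RNA polymerase I genes fell, and 1 gene fell in each of the snoRNP assembly and exosome lists. As shares, 23.7% of the small-subunit and 16.7% of the 60S factors fell, and the 10% of snoRNP assembly and 7.69% of exosome genes that fell were near the 8.6% of all genes. The medians of these 5 lists were 0.20 to 0.28 under AO, -0.06 to 0.13 under poly(I:C) and -0.17 to -0.03 at high density.

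Of 79 cytosolic ribosomal protein genes, the products that these factors assemble, only Rpl12 passed under AO (0.67 ± 0.14, adjusted p = 0.000589), although the median was 0.21. The median was 0.46 in hom lines, which include E1.4, 0.08 in het lines and 0.11 in WT lines, and the part of the gene length skew of E1.4 was not tested. Under poly(I:C) 9 rose, with a median of 0.23, which at 11.4% was near the 9.91% of all genes. With the replicate block 22 rose and 1 fell under AO, where 27.8% rising was near the 23.5% of all genes, and 45 rose under poly(I:C), or 57.0% beside 19.7%. At high density 63 of the 79 fell, or 79.7% beside 8.6% of all genes, with a median of -0.22. Of 21 other known Myc targets 8 rose and 2 fell under AO, with Srm, of polyamine synthesis, at 0.48 ± 0.09, and 6 rose under poly(I:C), with Odc1, of the same pathway, at 0.42 ± 0.07. At high density 13 of these 21 fell, Srm among them at -0.28 ± 0.07.

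In the network of 12 Myc, Max and Mxd genes, without Myc itself, 3 rose and 4 fell under AO and 2 rose and 4 fell under poly(I:C). Mxd proteins compete with Myc for Max and repress E-box genes. On the log2 scale under AO Mxd3 fell by 1.04 ± 0.15, Mxd4 fell by 1.005 ± 0.14 and Mxi1 fell by 0.57 ± 0.10, while Zbtb17, a partner through which Myc represses genes, rose by 0.68 ± 0.09. Under poly(I:C) Mxi1 fell by 0.62 ± 0.10, Mnt, another repressor that pairs with Max, by 0.53 ± 0.11 and Mxd4 by 0.53 ± 0.14. At high density 2 of 11 rose, Mycl by 0.70 ± 0.20 and Mxd4 by 0.36 ± 0.11, Mycl being named after its values were seen.

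**Figure D5:**
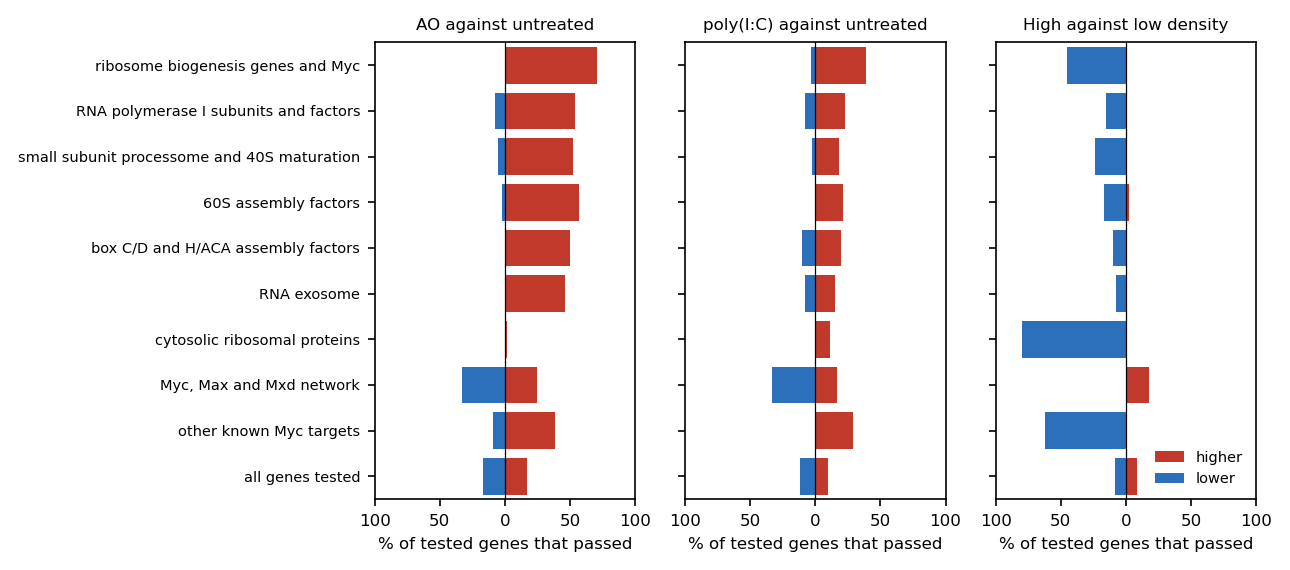
Share of tested genes that passed as higher (red, to the right) or lower (blue, to the left), in percent, for the 31 genes, the 8 other lists and all genes tested, in AO against untreated, poly(I:C) against untreated and high against low density. Under AO 71.0% of the 31 genes passed as higher, against 1.27% of ribosomal proteins and 17% of all genes.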

How the data were processed

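RNA-seq expected counts per gene, deposited by the authors for each library, were used; STAR, RSEM and mm10 are named in the submitters' processing notes, without versions, and the strand setting was not given in the sources used here. Since RSEM shares reads among near-identical copies, levels of ribosomal protein genes and Npm1 are less certain. The expected counts were made whole by rounding, and 49326 of 49585 gene IDs were named from GENCODE vM21. The 31 genes, the other lists and the tests were chosen with earlier results of these data known. In R 4.3.3, 30 libraries in 9 groups were fitted with edgeR 4.0.16 (TMM, filterByExpr with a minimum count of 10 and a total of 15, quasi-likelihood test) over 13364 genes, with Benjamini-Hochberg adjustment over all of them and a threshold of 0.05. The density fit held 9 libraries of line E1.5, 3 of them with no density label, over 12491 genes, with terms for treatment and density. Levels are CPM of the TMM-scaled library, and ratios of single libraries add 1 to the CPM. Each line is 1 library per treatment, and p-values of the fit without the block measure the spread between lines. With the block they measure the spread left once the level of each line is taken out. Those of the density fit measure the spread between libraries of 1 line. Each line recurs by name under all treatments, per the labels, and its libraries deviated together in all 30 pairs (correlation 0.342 to 0.765), so a fit with the line as a block was run. The other alternatives were DESeq2 1.42.0, RLE factors, no filter, the compared groups alone, E1 or E2 as a covariate, each line left out and, chosen after seeing the data, the length trend as a covariate. Myc was named in every comparison, with up to 8 of the 31 genes per direction of smallest p that passed, or 3 where none passed; the rest are named to account for every gene. Of each other list, genes could be named that were among the 3 of smallest p under AO or poly(I:C). The steps were tested on simulated data.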

Additional observations from a re-analysis of the deposited data

Results flagged for a closer look

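In the het groups of 4 lines, 9 of the 93 combinations of gene and treatment had 1 library far from the other 3. Chance gives about 1 in 20 groups, but genes of the same library are not independent. Hom and WT groups of 3 lines were not searched. Line E2.6 was the library apart in 7 of the 9. Its Myc under poly(I:C) was 181 CPM, against 287 to 306 CPM in the other het lines, and its Nop58 under AO was 439 CPM, against 529 to 535 CPM. Untreated, E2.6 had 173 CPM of Nop2 against 149 to 153 CPM, 72.3 CPM of Nop16 against 56.4 to 57.1 CPM, 187 CPM of Dkc1 against 172 to 174 CPM, and 502 CPM of Ddx21 against 394 to 405 CPM. Its Nop10 under poly(I:C) was 49.5 CPM, against 37.5 to 37.8 CPM. Markers of other cell types were also high in E2.6: under AO, under poly(I:C) and untreated, the macrophage sum was 29.9, 42.5 and 47.5 CPM, against 1.53 to 6.7 CPM in the other het lines. In the same order the smooth muscle sum was 254, 342 and 316 CPM, against 95.7 to 154 CPM, the chondrocyte sum 174, 173 and 210 CPM, against 34.4 to 158 CPM, and the endothelial sum 35.2, 27.2 and 22.6 CPM, against 4.74 to 20.1 CPM. The endothelial sum rests on few of its markers, as given above. The part of these markers in the values of E2.6 was not tested. Line E1.3 had 140 CPM of Tsr1 under poly(I:C), against 177 to 184 CPM, and line E2.5 had 88.5 CPM of Ltv1 untreated, against 63.3 to 66.9 CPM. The epithelial sum of E2.5 was 68.5 CPM under AO, 81.45 CPM under poly(I:C) and 84.4 CPM untreated. In the other het lines it was 3.18 to 10.6 CPM. The part of these markers in the values of E2.5 was not tested.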

How the results depend on the processing

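Over the genotypes, 22 of the 31 genes passed under AO, 13 under poly(I:C) and 13 between AO and poly(I:C), and with the line as a replicate block 26, 21 and 18 did. With 1 line left out the counts were 17 to 21 under AO, 10 to 20 under poly(I:C) and 11 to 15 between them. Within genotypes under AO, the block gave 19 genes in hom lines and 14 in WT lines, the length trend as a covariate, chosen after seeing the data, gave 14 in WT lines, and the compared groups alone gave 0 in hom lines. Leaving out a line gave 9 to 12 in hom lines, 5 to 12 in het lines and 3 to 14 in WT lines. Within genotypes under poly(I:C), the block gave 8 genes in hom lines, 10 in het lines and 8 in WT lines, DESeq2 gave 4, 6 and 3, the length trend 6, 9 and 3, and the compared groups alone 0, 0 and 4. No filter gave 0 in hom lines and 1 in het lines, and leaving out a line gave 0 to 4, 1 to 7 (the highest with 1 fall) and 0 to 5, with 2 in WT lines without E2.6. For density the 14 calls became 0 with no treatment term, 7 without the poly(I:C) libraries and 5 without the untreated libraries, within a range of 5 to 18 with a treatment left out. The share of all genes is not given beside each of these counts. A change of the 31 genes alone and one over all genes can then not be told apart. Groups share 1 estimate of the spread in a fit of all 9, so leaving out a line can change calls in other genotypes. The cause of these changes was not tested. Of the values of Myc and of the genes that passed in a comparison, 1463 kept their direction and side of the threshold under an alternative, 185 no longer passed, 3 newly passed, each of them Myc under poly(I:C) in hom lines, and 10 changed sign. Counted over all 31 genes, 177 of 7515 values that had not passed did so under an alternative, 54 of them with the replicate block, 33 with the length trend and 32 without E1.4.

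Each change of sign was an uncalled difference of Myc. Between hom and WT lines it was 0.006 untreated with E2.1 left out (log2), and under AO -0.008 with no filter and -0.037, -0.021 and -0.025 with E1.4, E2.2 or E2.7 left out. Between het and WT lines under poly(I:C) it was 0.00 with no filter, 0.10 with E1.5 left out and 0.13 with E2.6 left out. The difference of the AO responses, hom minus WT, was -0.023 with E1.4 left out and -0.006 with E2.2 left out. The genotype counts and those of the hom minus WT responses were 0 under every alternative run. With 3 or 4 lines a group, and 1 library per density and treatment, the spread between libraries limits what can be detected.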
